A study of Homo sapiens with 12 samples.

Results

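The genes described here are 10 ATP-binding cassette (ABC) transporters of drugs, conjugates, porphyrins and sterols: ABCC1, ABCC2, ABCC3, ABCC4, ABCC5, ABCB1, ABCG2, ABCB6, ABCA1 and ABCG1. They were chosen by name, with earlier results of these data known, and all 10 have a row among the 59424 genes of both deposited tables. Their levels were followed in CWR22Rv1 prostate cancer cells with knockdown of GALNT7 and in DU145 prostate cancer cells with overexpression of GALNT7. GALNT7 is an enzyme of O-linked glycosylation, and the RNA-seq was made to look for genes that change when its level falls or rises.

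CWR22Rv1 and DU145 are established human prostate cancer lines. The shControl group is CWR22Rv1 cells with a lentiviral control shRNA (Lenti-shControl), and the GALNT7 KD group is the same line with GALNT7 knockdown. The OEControl group is DU145 cells with a lentiviral control open reading frame (Lenti-ORF control), and the GALNT7 OE group is the same line with GALNT7 overexpression. All 4 groups are stable lines made by lentiviral transduction and labelled as 3 biological replicates each, so that 12 libraries were analysed. Whether each line was a pool or a single clone, and which promoter drove the reading frame, is not given in the sources used here. Every comparison is therefore between stable lines, and the p-values measure the spread between the replicates of those lines.

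ABC transporters use the energy of ATP to move molecules across membranes. ABCB1 (P-glycoprotein), ABCG2 (breast cancer resistance protein) and ABCC1 pump many anticancer drugs out of cells, while ABCC2 and ABCC3 carry compounds joined to glutathione, glucuronic acid or sulphate, and ABCC4 and ABCC5 carry cyclic nucleotides. ABCB6 moves porphyrins, the precursors of haem, and ABCA1 and ABCG1 export cholesterol under the control of the oxysterol-sensing liver X receptors (LXR).

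The promoters of 4 members that moved in DU145 cells are shown, because ABCA1 and ABCC4 fell there while ABCB6 and ABCC2 rose. Each is the 250 bases before the gene's start on the gene's strand, from RefSeq on GRCh38.p14, and 7 of the 10 members have an entry. Capitals mark a CACGTG match (an E-box) or a match to NGGTNA and NGGTCA spaced by 4 bases, a direct repeat of the type that LXR binds, both searched on both strands.
ABCA1 (chr9:104928156-104928405, minus strand): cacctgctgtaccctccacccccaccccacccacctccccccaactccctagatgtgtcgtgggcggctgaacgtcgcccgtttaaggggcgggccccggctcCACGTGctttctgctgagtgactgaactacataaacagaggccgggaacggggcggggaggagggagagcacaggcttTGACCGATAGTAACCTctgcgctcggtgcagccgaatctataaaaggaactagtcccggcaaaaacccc
ABCB6 (chr2:219218959-219219208, minus strand): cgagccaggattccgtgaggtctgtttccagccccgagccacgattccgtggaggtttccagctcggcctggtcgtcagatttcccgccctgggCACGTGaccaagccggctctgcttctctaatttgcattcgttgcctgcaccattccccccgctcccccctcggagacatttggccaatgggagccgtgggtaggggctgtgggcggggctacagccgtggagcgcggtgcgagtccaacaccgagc
ABCC2 (chr10:99782390-99782639, plus strand): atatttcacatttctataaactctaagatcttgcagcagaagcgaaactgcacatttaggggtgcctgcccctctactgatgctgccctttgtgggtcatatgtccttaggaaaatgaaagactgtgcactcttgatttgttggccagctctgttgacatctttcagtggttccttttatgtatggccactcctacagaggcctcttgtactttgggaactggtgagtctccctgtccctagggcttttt
ABCC4 (chr13:95301452-95301701, minus strand): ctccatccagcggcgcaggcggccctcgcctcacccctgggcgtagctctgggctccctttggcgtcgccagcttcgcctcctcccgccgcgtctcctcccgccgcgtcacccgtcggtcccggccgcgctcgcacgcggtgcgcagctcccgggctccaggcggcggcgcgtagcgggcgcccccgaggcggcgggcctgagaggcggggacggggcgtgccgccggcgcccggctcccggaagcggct
In ABCA1 the E-box began at position -147 and the direct repeat, TGACCGATAGTAACCT on the strand shown, at position -69 from the start. In ABCB6 an E-box began at position -156. Neither of these motifs was found in the ABCC2 and ABCC4 windows. Of 35116 promoter windows of this length, 6.34% held CACGTG and 0.214% held the direct repeat. A match is a description of the letters and not evidence that a factor was bound.

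The deposited values are normalised counts, meaning reads per gene divided by a size factor for each library, and each table was normalised by itself. Recovered depth was 18364512 to 22264533 reads in CWR22Rv1 libraries and 21628718 to 24356910 in DU145 libraries. GALNT7 was measured first. In shControl libraries its normalised counts were 862, 1042 and 1093, against 481, 501 and 399.7 in GALNT7 KD libraries. In DU145 cells they were 1051, 928 and 913 in OEControl and 1988, 2221 and 2334 in GALNT7 OE. The groups did not overlap in either cell line (log2 fold changes -1.11 with standard error 0.129 and 1.18 with standard error 0.0863, limma adjusted p = 0.00512 and 7.99e-05). Among markers of the lines, CWR22Rv1 libraries held KLK3, which encodes prostate-specific antigen, at 339 to 856 and VIM (vimentin) at 32.9 to 98.9, while in DU145 libraries KLK3 was at 0 in all 6 and VIM stood at 16225 to 19758. Of 10 markers of fibroblasts, immune and endothelial cells, CD3E was at 0 in all 12 libraries. Their summed normalised count was 273 to 358 in shControl and 671 to 776 in GALNT7 KD, mostly LUM, with CDH5 also at 0. In DU145 cells the sum was 313 to 445 in OEControl and 73.0 to 173 in GALNT7 OE, mostly COL1A1, with LUM at 0. The libraries are labelled as cells of established lines and each sum was mostly a single gene, so it does not measure how many such cells there were. Whether any were present was not tested. In bulk RNA, a change in the number of cells of a type and in RNA per cell cannot be told apart.

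In CWR22Rv1 cells 3 of the 10 members rose with GALNT7 KD and none fell, where 0 members fell at an unadjusted limma p under 0.05 and 0 in edgeR and DESeq2 on the recovered reads. These were ABCG2, ABCC2 and ABCC4, a drug pump, a conjugate pump and a cyclic nucleotide pump. Among all 17906 genes tested, 5.28% rose and 3.79% fell, together 9.06%. The groups did not overlap for 4 members, all higher in GALNT7 KD. Over all genes 32.5% did not overlap, with 16.9% higher and 15.6% lower in GALNT7 KD. The median log2 fold change of the members was 0.26, against -0.0063 over all genes tested. The list was chosen with earlier results known, so members and all genes are set side by side in both lines as a description only. Every call was made with limma on log2(normalised count + 1) with Benjamini-Hochberg adjustment over all genes and a threshold of 0.05. Fold changes on this scale understate the change of genes with few reads. With 3 libraries against 3 a two-sided exact permutation test of a single gene cannot give a p below 0.1. The 3 calls were close to the threshold, and leaving out GALNT7 KD replicate 1 left 0 of them. Without GALNT7 KD replicate 2, shControl replicate 1 or shControl replicate 2, 1 call was left, and without shControl replicate 3, 2 were left.

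In DU145 cells 2 members rose and 4 fell with GALNT7 OE, of the 9 tested. ABCB6 and ABCC2 were higher, and ABCC3, ABCA1, ABCG1 and ABCC4 were lower. ABCB1 had too few reads to be tested. Among the 18705 genes tested, 43.5% passed the threshold, with 22.9% higher and 20.5% lower, so that a change in either direction was common in this comparison. The groups did not overlap for 7 members, 2 higher and 5 lower in GALNT7 OE. Over all genes 55.3% did not overlap, with 28.2% higher and 27.1% lower. The median log2 fold change of the members was -0.28, against -0.011 over all genes. The median size of the change, without its sign, was 0.84 for the members and 0.41 over all genes, compared with 0.31 and 0.22 in the knockdown. Scaling to the 75th percentile moved the median of all genes to -0.11 and the share of higher calls among all genes from 52.8% to 41.6%. Under that scaling 1 member rose and 6 fell, since ABCC2 was no longer past the threshold and ABCC1 and ABCC5 were.

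**Figure D1:**
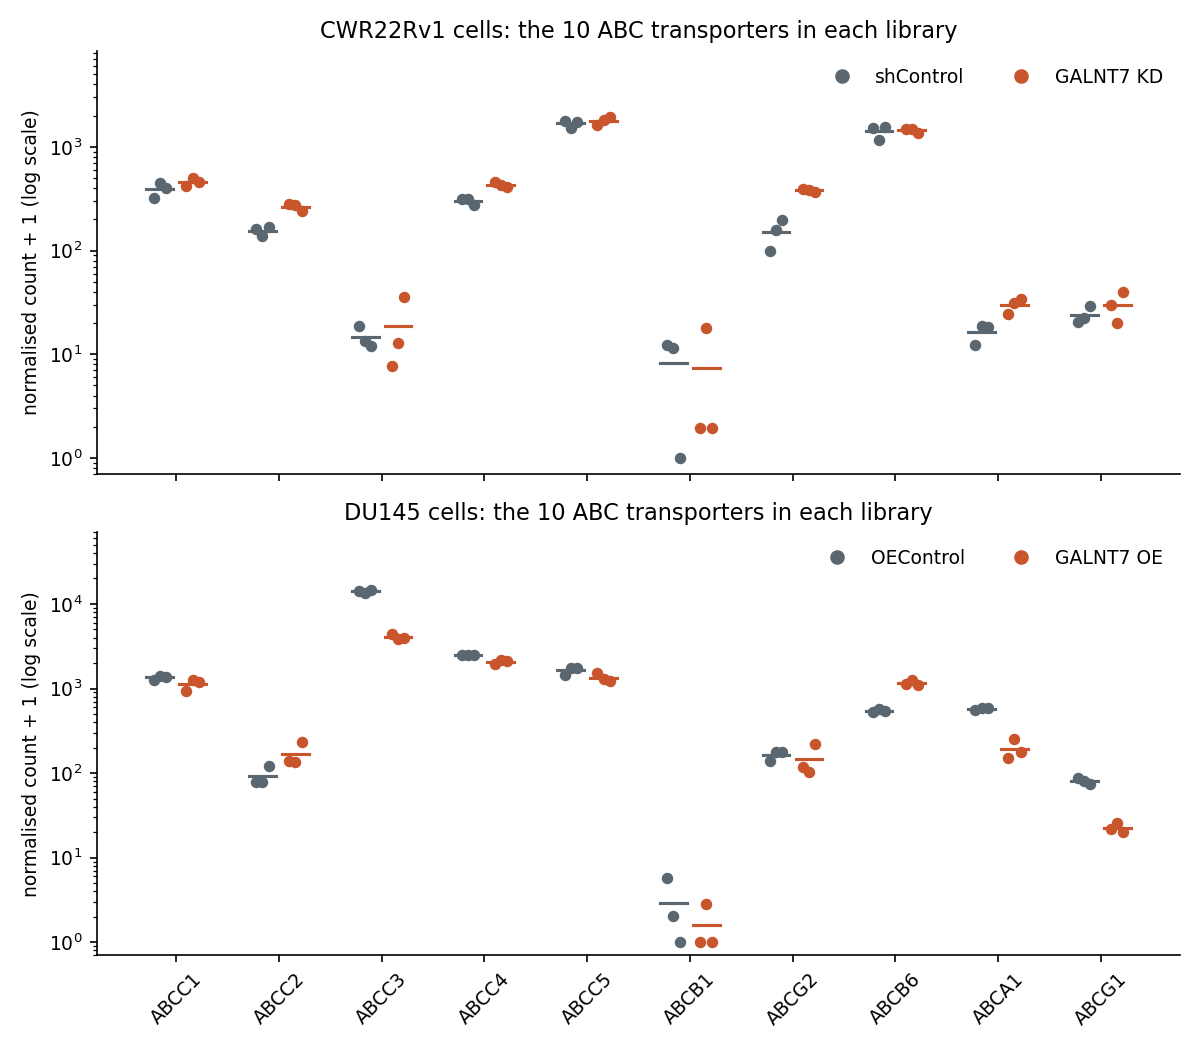
Normalised count plus 1 (log axis) of the 10 transporters in each library of CWR22Rv1 cells (top) and DU145 cells (bottom). Each point is a library and each bar the mean of 3. In CWR22Rv1 cells the ABCG2 points of GALNT7 KD (368 to 393) lie above all shControl points (97.1 to 196), and in DU145 cells the ABCC3 points of GALNT7 OE (3865 to 4385) lie below all OEControl points (13640.4 to 14589).

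**Figure D2:**
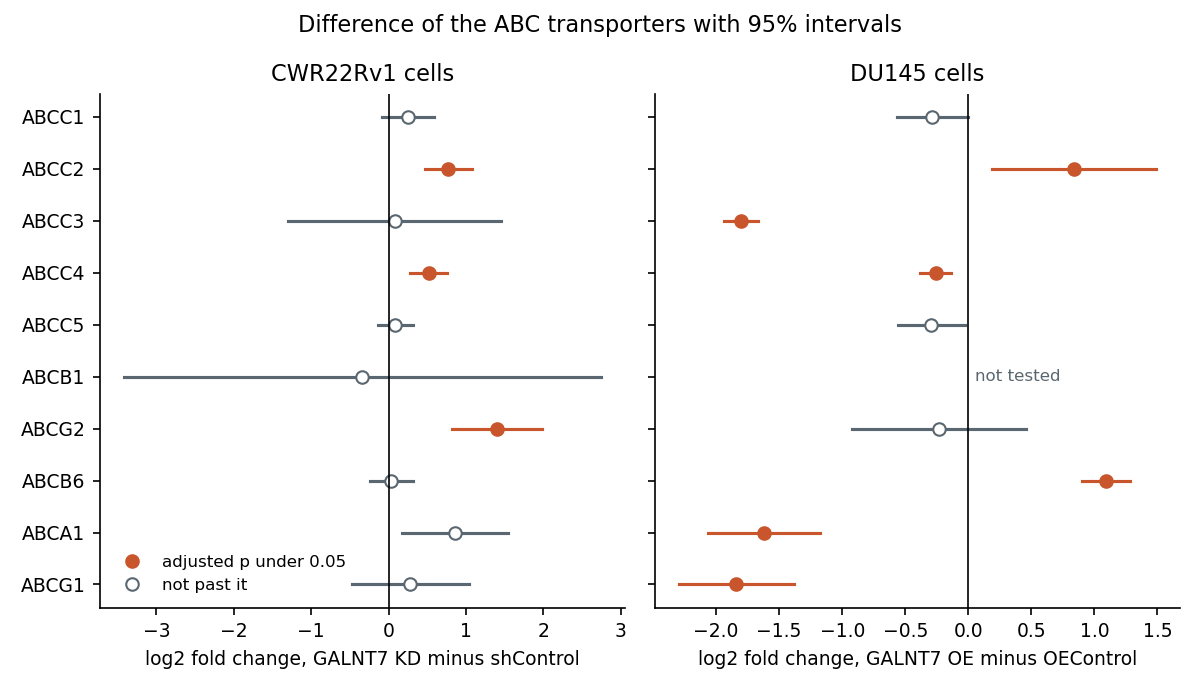
Difference of each transporter between the groups as a log2 fold change (x axis) with its 95% interval, in CWR22Rv1 cells (left) and DU145 cells (right). Filled points passed the limma threshold of 0.05 and open points did not. The 3 filled points on the left lie above 0, while on the right 2 lie above 0 and 4 below.

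ABCC2 was the 1 member that rose in both cell lines. ABCC2 (ENSG00000023839, chr10:99782640-99852594, plus strand), also called MRP2, exports conjugates at the apical face of liver, kidney and gut cells. In shControl libraries its normalised counts were 161, 136 and 168, and in GALNT7 KD libraries 277, 274 and 242. All GALNT7 KD libraries were above all shControl libraries, a ratio of means of 1.71 (log2 fold change 0.77, standard error 0.127, limma adjusted p = 0.0162). The adjusted p was 0.0687 without GALNT7 KD replicate 1 and 0.0566 without shControl replicate 1. In DU145 cells the values were 77.3, 77.7 and 121 in OEControl and 136, 134 and 229.7 in GALNT7 OE. Replicate 3 was the highest library of each group, and the groups did not overlap. The difference was 0.84 on the log2 scale (standard error 0.274, limma adjusted p = 0.0451). This call rested on a narrow margin, since the adjusted p exceeded 0.05 in each of the 5 fits that left out OEControl replicate 1 (0.124) or 2 (0.123) or GALNT7 OE replicate 1 (0.0566), 2 (0.0542) or 3 (0.107). It was 0.0505 in edgeR on the recovered reads. In limma it was 0.0687 with scaling to the 75th percentile, 0.0723 without the eBayes trend and 0.0573 with no filter on low values. Of the 11 settings that kept all libraries, 7 kept the call.

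ABCC3 showed the smallest p among the members in DU145 cells. ABCC3 (ENSG00000108846, chr17:50634777-50692252, plus strand), or MRP3, exports glucuronides and bile acids across the basolateral membrane. OEControl libraries had 14244, 13640.4 and 14589 normalised counts, and GALNT7 OE libraries had 4385, 3865 and 3963. The groups were far apart relative to their spread, with a mean 3.48-fold lower in GALNT7 OE (log2 fold change -1.80, standard error 0.0568, limma adjusted p = 3.22e-06). Over the fits that left out 1 library the log2 fold change lay between -1.85 and -1.76. In CWR22Rv1 cells ABCC3 was barely detected, with 17.7, 12.4 and 11 in shControl and 6.77, 11.7 and 34.7 in GALNT7 KD. Those groups overlapped, GALNT7 KD replicate 3 was the highest library and GALNT7 KD replicate 1 the lowest. The difference there was 0.08, with a 95% interval from -1.30 to 1.45 (limma adjusted p = 0.954), and no difference was detectable at this depth.

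ABCC1 (ENSG00000103222, chr16:15949577-16143074, plus strand), or MRP1, a pump for glutathione conjugates and several anticancer drugs, did not pass the threshold in either line. Its normalised counts were 319, 445 and 403 in shControl and 422, 496 and 460.4 in GALNT7 KD, and the groups overlapped (log2 fold change 0.25, 95% interval -0.085 to 0.59, limma adjusted p = 0.315). In DU145 cells they were 1268, 1407 and 1380.3 in OEControl and 927, 1247 and 1178 in GALNT7 OE. All GALNT7 OE libraries were below all OEControl libraries, yet the difference of -0.28 (95% interval -0.56 to -0.0062) had a limma adjusted p of 0.0908. It passed with scaling to the 75th percentile (0.0314) and with quantile normalisation (0.0316).

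The enzymes that make glutathione and join it, or sulphate and glucuronic acid, to the cargo of these pumps were tested in the same fits. Of 18 tested genes of this list, 6 rose and none fell with GALNT7 KD (33.3% past the threshold, against 9.06% of all genes). The list's median log2 fold change was 0.18. In the falling direction 2 had an unadjusted limma p under 0.05, and 0 passed in edgeR and 1 in DESeq2 on the recovered reads. Those with the largest changes were GGT1, which breaks down glutathione outside the cell (0.93, standard error 0.0875, limma adjusted p = 0.0027), MGST3 (0.90, standard error 0.109, limma adjusted p = 0.00627) and GSTM3 (0.84, standard error 0.155, limma adjusted p = 0.0222). The GSTM3 call was lost without GALNT7 KD replicate 1 (0.0825) or 2 (0.0566), or without shControl replicate 1 (0.0796) or 3 (0.0716). With GALNT7 OE 6 of 20 rose and 5 fell (55% past the threshold, against 43.5% of all genes), with a median of 0.080. GCLM, the modifier subunit of the enzyme that limits glutathione synthesis, rose from a mean of 867 to 2426 normalised counts (1.49, standard error 0.0633, limma adjusted p = 8.59e-06). GSTT2B fell (-1.53, standard error 0.206, limma adjusted p = 0.00115), and so did GGT1 (-1.41, standard error 0.301, limma adjusted p = 0.00866). GSTT2B and GGT1 have near-identical copies in the genome that can share reads, so their values are uncertain.

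ABCC4 passed the threshold in both lines, with opposite signs. ABCC4 (ENSG00000125257, chr13:95019829-95301475, minus strand), or MRP4, exports cyclic AMP, cyclic GMP and prostaglandins and is known to be abundant in prostate. Its normalised counts were 315, 314 and 274 in shControl and 455, 427 and 408 in GALNT7 KD. The groups did not overlap, and the log2 fold change was 0.52 (standard error 0.1, limma adjusted p = 0.026). In 5 of the 6 fits that left out 1 library the call was lost. The adjusted p was 0.098 without GALNT7 KD replicate 1, 0.0647 without GALNT7 KD replicate 2, and 0.0741, 0.0607 and 0.0803 without shControl replicates 1, 2 and 3. In DU145 cells ABCC4 had 2498, 2487 and 2470.5 in OEControl and 1972, 2161 and 2106 in GALNT7 OE. The OEControl libraries lay within a narrow range above all GALNT7 OE libraries, and the mean was 1.19-fold lower in GALNT7 OE (log2 fold change -0.26, standard error 0.0521, limma adjusted p = 0.00684). This call held without each library in turn (adjusted p up to 0.0275). Over the 16124 genes tested in both lines, 884 passed in both, 464 of them with opposite signs and 420 with the same sign.

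ABCC5 (ENSG00000114770, chr3:183919934-184018015, minus strand), or MRP5, a cyclic nucleotide pump, did not pass in either line. It had 1786, 1510.1 and 1743 normalised counts in shControl and 1609.7, 1811 and 1927 in GALNT7 KD, a difference of 0.086 with a 95% interval from -0.14 to 0.31 (limma adjusted p = 0.622). The groups overlapped, and the interval excluded a change of the size ABCC2 showed in the same libraries. In DU145 cells the values were 1438, 1759 and 1724 in OEControl and 1511, 1292 and 1211 in GALNT7 OE. OEControl replicate 1 lay within the range of GALNT7 OE, and the difference was -0.29 (limma adjusted p = 0.0715). It passed the threshold without OEControl replicate 1 (0.0347), without GALNT7 OE replicate 1 (0.0312) and in DESeq2 on the recovered reads (0.0406). It also passed with scaling to the 75th percentile (0.0311) and with quantile normalisation (0.0267).

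Among the cyclic nucleotide and prostanoid genes listed around ABCC4 and ABCC5, 3 of 20 rose and 2 fell with GALNT7 KD. Past the threshold were 25% of the list, against 9.06% of all genes, and the list's median was 0.11. PRKACB, a catalytic subunit of the cyclic AMP-dependent kinase, rose (0.76, standard error 0.0863, limma adjusted p = 0.0049), as did PTGS2, the inducible cyclooxygenase (0.66, standard error 0.105, limma adjusted p = 0.0146). ADCY6, an adenylyl cyclase, fell (-0.53, standard error 0.109, limma adjusted p = 0.0309). The PTGS2 call was lost without GALNT7 KD replicate 1 (0.0633) or shControl replicate 1 (0.0621) or 3 (0.0577), and the ADCY6 call without GALNT7 KD replicate 3 (0.0599) or shControl replicate 1 (0.108), 2 (0.0781) or 3 (0.0872). With GALNT7 OE 3 of 20 rose and 8 fell (55% past the threshold, against 43.5% of all genes), with a median of -0.25. PTGES, a prostaglandin E synthase, had 4525, 4531 and 4545 in OEControl and 1856, 1792 and 1808 in GALNT7 OE (-1.32, standard error 0.0416, limma adjusted p = 3.22e-06). PDE5A, which breaks down cyclic GMP, also fell (-1.47, standard error 0.256, limma adjusted p = 0.00357), and so did the prostaglandin E receptor PTGER2 (-1.22, standard error 0.167, limma adjusted p = 0.00124).

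ABCG2 showed the largest log2 fold change of the 10 members in the knockdown. ABCG2 (ENSG00000118777, chr4:88090264-88231322, minus strand) pumps drugs and urate and is used as a marker of stem-like cells. Its normalised counts were 97.1, 156 and 196 in shControl and 393, 379.7 and 368 in GALNT7 KD. The lowest GALNT7 KD library was above the highest shControl library, and the spread was wider in shControl (150 ± 49.7, SD, n = 3) than in GALNT7 KD (380.1 ± 12.3, SD, n = 3). The mean was 2.54-fold higher in GALNT7 KD (log2 fold change 1.40, standard error 0.245, 95% interval 0.81 to 1.98, limma adjusted p = 0.0194). Leaving out 1 library kept the log2 fold change between 1.12 and 1.62, while the adjusted p rose to 0.0734 without GALNT7 KD replicate 1, 0.0559 without GALNT7 KD replicate 2 and 0.052 without shControl replicate 2. In DU145 cells ABCG2 had 137, 176 and 175 in OEControl and 117, 102 and 219 in GALNT7 OE. GALNT7 OE replicate 3 was the highest library and the other two of its group the lowest, so the groups overlapped (log2 fold change -0.23, 95% interval -0.92 to 0.46, limma adjusted p = 0.557). Without GALNT7 OE replicate 3 the difference was -0.56 and passed the threshold (0.0475).

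ABCB1 (ENSG00000085563, chr7:87503633-87713323, minus strand), the P-glycoprotein gene, was close to undetected in both lines. Its normalised counts were 11.2, 10.6 and 0 in shControl and 0.967, 17.1 and 0.963 in GALNT7 KD, which is 0 to 16 reads a library. Libraries of either group were among the highest and the lowest, and no difference was detectable at this depth (log2 fold change -0.34, 95% interval -3.42 to 2.74, limma adjusted p = 0.905). In DU145 cells it had 4.77, 1.02 and 0 in OEControl and 0, 1.85 and 0 in GALNT7 OE, below the mean of 5 needed for a test.

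Of 15 tested receptors and transcription factors known to act on drug pump genes, 3 rose and none fell with GALNT7 KD, with a median of 0.12. In the falling direction 2 had an unadjusted limma p under 0.05, and 0 passed in edgeR and 2 in DESeq2. In either direction 20% of the list passed the threshold, against 9.06% of all genes. FOXO1, a forkhead factor, had 227, 259 and 234 normalised counts in shControl and 1663, 1840.1 and 1192 in GALNT7 KD (2.68, standard error 0.165, limma adjusted p = 0.000653). The related FOXO3 rose less (0.38, standard error 0.0619, limma adjusted p = 0.0162), as did HIF1A, the oxygen-responsive factor (0.41, standard error 0.0533, limma adjusted p = 0.00753). The FOXO3 call was lost without GALNT7 KD replicate 1 (0.0707) or shControl replicate 1 (0.0687) or 3 (0.0613). With GALNT7 OE 2 of 16 rose and 7 fell (56.25% past the threshold, against 43.5% of all genes), with a median of -0.15. There FOXO1 had 374, 2138 and 2544 in OEControl and 163, 183 and 165 in GALNT7 OE, so that OEControl replicate 1 lay far below the other two of its group (-2.89, standard error 0.677, limma adjusted p = 0.0127). YBX1, a cold-shock domain protein linked to ABCB1 expression, rose (0.94, standard error 0.0386, limma adjusted p = 7.76e-06), and the nuclear receptor PPARG rose too (0.63, standard error 0.0851, limma adjusted p = 0.00116).

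ABCB6 rose with GALNT7 OE and did not pass the threshold with GALNT7 KD. ABCB6 (ENSG00000115657, chr2:219209766-219219017, minus strand) had 522, 566 and 535 normalised counts in OEControl and 1118, 1263 and 1095 in GALNT7 OE. All GALNT7 OE libraries were above all OEControl libraries, with a mean 2.14-fold higher in GALNT7 OE (log2 fold change 1.10, standard error 0.0802, limma adjusted p = 7.98e-05), and the log2 fold change stayed between 1.03 and 1.14 without each library in turn. In CWR22Rv1 cells it had 1523, 1176 and 1555 in shControl and 1471, 1484 and 1369.7 in GALNT7 KD. Those groups overlapped, with shControl replicate 2 the lowest, and the difference was 0.034 with a 95% interval from -0.24 to 0.31 (limma adjusted p = 0.89). Of the 5234 exon bases of ABCB6 in GENCODE release 29, 54.7% are shared on the same strand with AC068946.2. This protein-coding gene model was not analysed here. The submitters' processing notes list Salmon, but the annotation release and the way shared reads were assigned are not given in the sources used here. The values of ABCB6 are therefore uncertain.

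Genes of haem synthesis, breakdown and transport and of ferritin, listed around ABCB6, included changes in both lines. With GALNT7 KD 6 of 19 rose and none fell (31.6% past the threshold, against 9.06% of all genes), with a median of 0.19. In the falling direction 1 had an unadjusted limma p under 0.05, and 0 passed in edgeR and DESeq2. HMOX1, the inducible haem oxygenase, had 161, 155 and 159 normalised counts in shControl and 526, 507 and 581 in GALNT7 KD (1.76, standard error 0.0963, limma adjusted p = 0.000438). The biliverdin reductases BLVRA (1.11, standard error 0.172, limma adjusted p = 0.0129) and BLVRB (0.67, standard error 0.0897, limma adjusted p = 0.00842), which act after it, rose as well, and the BLVRA call was lost without GALNT7 KD replicate 1 (0.0599). With GALNT7 OE 5 of 19 rose and 3 fell (42.1% past the threshold, near the 43.5% of all genes), with a median of 0.19. FECH, which inserts iron into the porphyrin, rose from 747, 996 and 861 to 1748, 1853 and 1769.5 (1.05, standard error 0.106, limma adjusted p = 0.000312). ALAD, an early enzyme of the pathway, fell (-0.69, standard error 0.0888, limma adjusted p = 0.000945), and so did the ferritin heavy chain FTH1 (-0.62, standard error 0.0256, limma adjusted p = 7.63e-06). Of the exon bases of FTH1, 62.4% are shared with BEST1 on the other strand, and the strand setting of the counting is not given in the sources used here.

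Both cholesterol exporters fell with GALNT7 OE. ABCA1 (ENSG00000165029, chr9:104781002-104928237, minus strand), which loads cholesterol onto apolipoproteins, had 558, 584 and 594 normalised counts in OEControl and 149, 251 and 175 in GALNT7 OE. The groups did not overlap, and the mean was 3.02-fold lower in GALNT7 OE (log2 fold change -1.62, standard error 0.186, limma adjusted p = 0.000554). In CWR22Rv1 cells it was low, with 11.2, 17.7 and 17.4 in shControl and 23.2, 29.9 and 32.7 in GALNT7 KD. All GALNT7 KD libraries were above all shControl libraries, but the log2 fold change of 0.86 (95% interval 0.18 to 1.55) had a limma adjusted p of 0.116 and is not counted as a change.

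ABCG1 (ENSG00000160179, chr21:42199689-42297244, plus strand), which passes cholesterol on to mature high-density lipoprotein, had 86.9, 78.7 and 73.6 normalised counts in OEControl and 21.0, 25.0 and 18.9 in GALNT7 OE. All GALNT7 OE libraries were below all OEControl libraries, with a mean 3.69-fold lower (log2 fold change -1.84, standard error 0.191, limma adjusted p = 0.000365). Both ABCA1 and ABCG1 kept their calls in DU145 cells without each library in turn, with adjusted p up to 0.00339 and 0.00284. In CWR22Rv1 cells ABCG1 had 19.6, 21.2 and 28.4 in shControl and 29, 19.2 and 38.5 in GALNT7 KD. Those groups overlapped (log2 fold change 0.28, 95% interval -0.48 to 1.03, limma adjusted p = 0.633).

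The sterol list holds the LXR receptors, other known LXR targets and the partners of ABCA1 and ABCG1 in cholesterol handling. With GALNT7 KD 1 of 17 tested genes rose and 4 fell (29.4% past the threshold, against 9.06% of all genes), with a median of -0.087. SREBF1, a regulator of lipid synthesis and an LXR target, fell from 2333, 2180.3 and 2157 to 1185, 1026 and 1104 (-1.01, standard error 0.0735, limma adjusted p = 0.00106). SCARB1, the receptor for high-density lipoprotein, was also lower (-0.52, standard error 0.0824, limma adjusted p = 0.0144). The SCARB1 call was lost without GALNT7 KD replicate 1 (0.0618) or shControl replicate 1 (0.0571) or 3 (0.0583). The 1 gene that rose was APOE, an acceptor of exported cholesterol, named after its values were seen because it was below the count needed to be named, with 8.40, 13.3 and 13.7 in shControl and 41.6, 27.7 and 48.2 in GALNT7 KD (1.64, standard error 0.322, limma adjusted p = 0.0269).

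With GALNT7 OE 3 of 18 tested genes of the sterol list rose and 7 fell, with a median of -0.096. Past the threshold were 55.6% of the list, against 43.5% of all genes. APOE fell from 346, 364 and 337 to 118, 121 and 104 (-1.60, standard error 0.108, limma adjusted p = 5.52e-05). NPC2, which hands cholesterol out of the lysosome, fell from a mean of 4168 to 1917 (-1.12, standard error 0.0514, limma adjusted p = 1.09e-05). The list therefore held changes in either direction beside the lower ABCA1 and ABCG1.

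**Figure D3:**
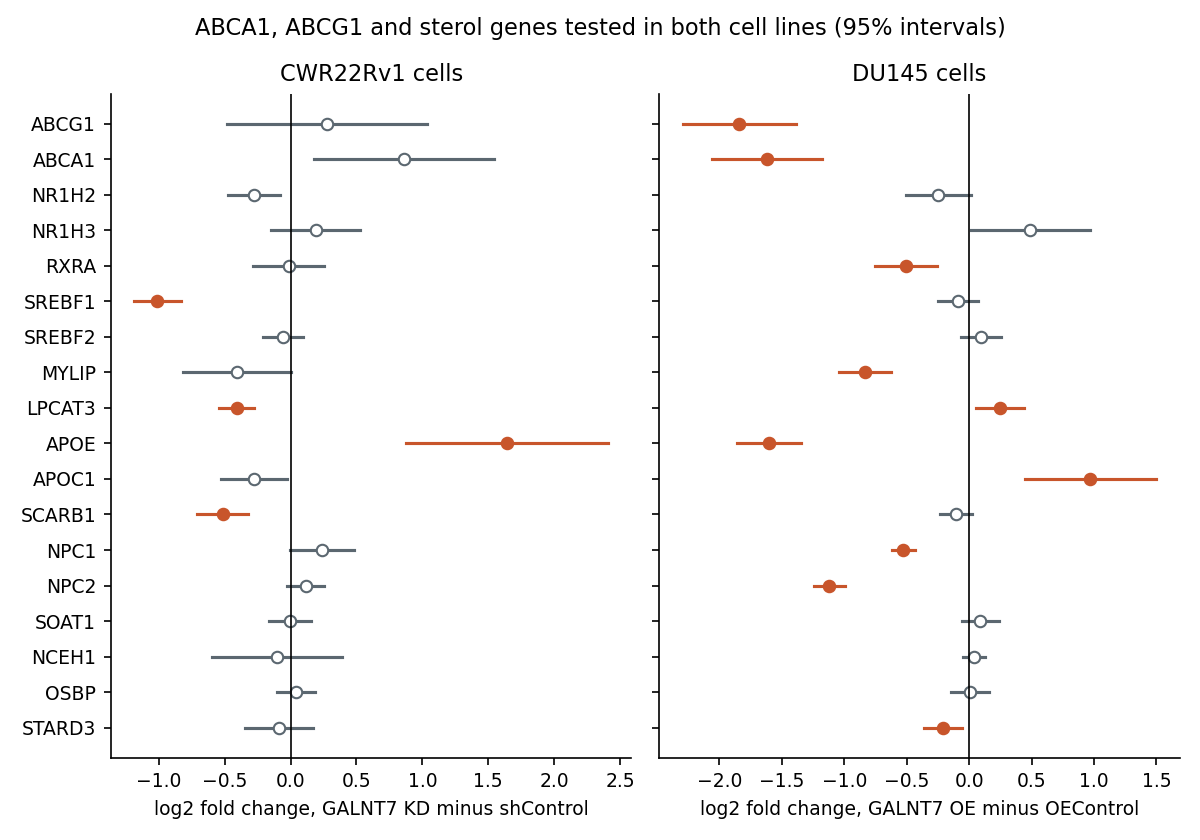
Log2 fold change (x axis) with its 95% interval for ABCG1, ABCA1 and sterol genes tested in both lines, in CWR22Rv1 cells (left) and DU145 cells (right). Filled points passed the limma threshold of 0.05 and open points did not. ABCG1 (-1.84), ABCA1 (-1.62) and APOE (-1.60) are the lowest points on the right, and APOE (1.64) is the highest point on the left.

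Scaffold and partner proteins that hold ABC pumps at the membrane were also counted. With GALNT7 KD 1 of 11 tested genes rose and none fell (9.09% past the threshold, near the 9.06% of all genes), with a median of -0.024. For falling genes there were 2 with an unadjusted limma p under 0.05, and 0 that passed in edgeR and DESeq2. That gene was MSN (moesin), a linker between membrane proteins and actin, with 265, 275 and 287 normalised counts in shControl and 618, 649.6 and 613 in GALNT7 KD (1.18, standard error 0.0818, limma adjusted p = 0.000866). With GALNT7 OE 5 of 12 rose and 1 fell (50% past the threshold, against 43.5% of all genes), with a median of 0.016. CAV1, the caveolin of membrane pits, rose (1.21, standard error 0.0379, limma adjusted p = 3.22e-06), as did SLC9A3R1, a PDZ scaffold that binds the tail of ABCC pumps (0.49, standard error 0.113, limma adjusted p = 0.0121). The kinase PIM1, which is known to act on ABCG2, fell (-0.52, standard error 0.0724, limma adjusted p = 0.00137).

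The rest of the ABC family was tested in the same fits. With GALNT7 KD 0 of 26 other ABC genes rose and 1 fell, where 9.06% of all genes passed the threshold. For a rise, 2 had an unadjusted limma p under 0.05, and 0 passed in edgeR and DESeq2. ABCA3, a lipid transporter, was that 1 among 14 other membrane and lipid transporters (-0.37, standard error 0.0689, limma adjusted p = 0.0238; median of the 14 genes 0.017). Its call was lost in the 5 fits without GALNT7 KD replicate 1 (0.0853) or 2 (0.0514) or shControl replicate 1 (0.0903), 2 (0.076) or 3 (0.0582). None of 12 ABC proteins of mitochondria, peroxisomes, lysosomes and ribosomes passed the limma threshold, 0 had an unadjusted p under 0.05 and 0 passed in edgeR and DESeq2, and their median was 0.056.

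With GALNT7 OE 6 of 23 other ABC genes rose and 6 fell, where 43.5% of all genes passed the threshold. None of the 12 membrane and lipid transporters rose, in limma at an unadjusted p under 0.05 (0), in edgeR (0) or in DESeq2 (0). Of the 12 genes 3 fell, or 25%, and the median of the list was -0.17. These were ABCA7 (-1.25, standard error 0.106, limma adjusted p = 0.000148), ABCA2 (-0.96, standard error 0.0507, limma adjusted p = 2.06e-05), both lipid transporters, and ABCC10 (-0.53, standard error 0.0786, limma adjusted p = 0.00184), a drug pump of the ABCC branch. Among the 11 organelle and ribosome proteins 6 rose and 3 fell (81.8% past the threshold), with a median of 0.43. ABCE1, a ribosome recycling factor, had 2916, 3161 and 3361 in OEControl and 6415, 7006 and 6516 in GALNT7 OE (1.08, standard error 0.0646, limma adjusted p = 3.36e-05). ABCD4, a lysosomal transporter of vitamin B12, fell (-0.87, standard error 0.0852, limma adjusted p = 0.000278).

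**Figure D4:**
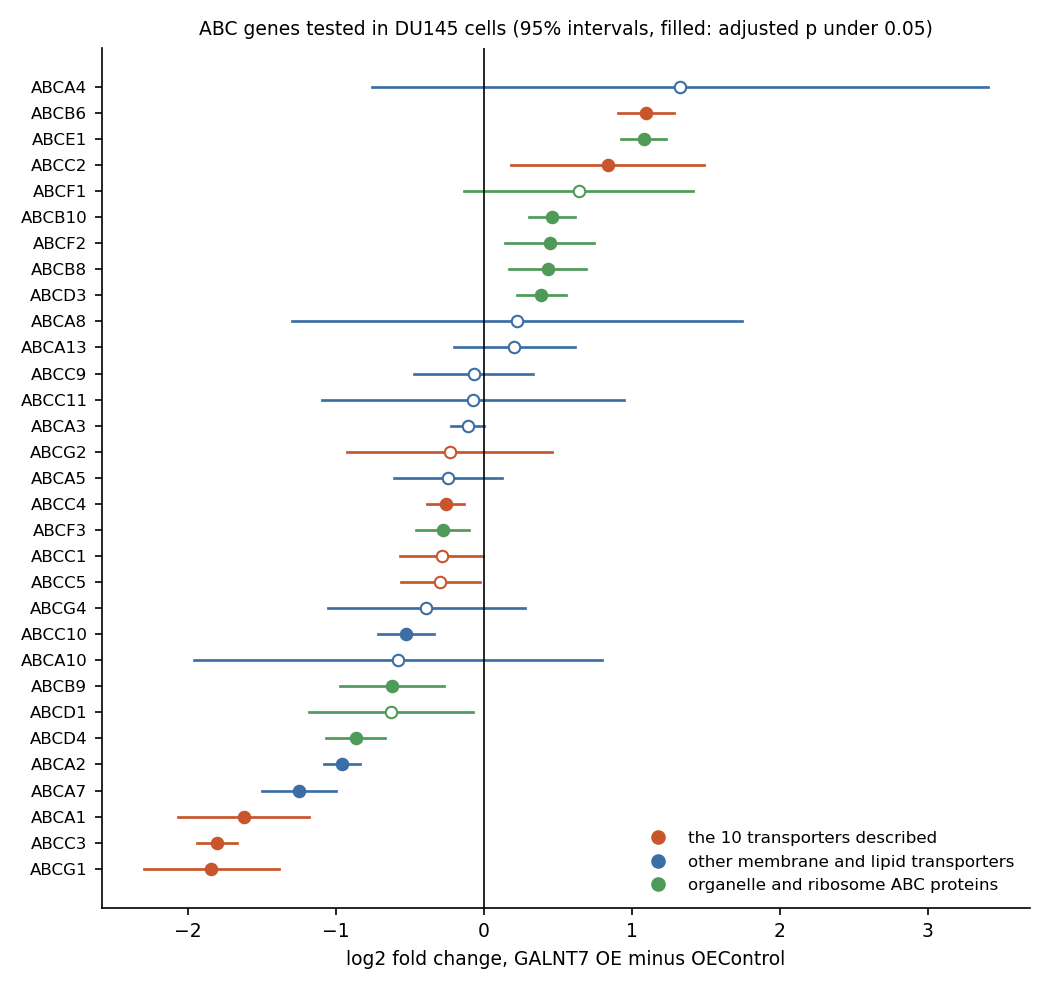
Log2 fold change between GALNT7 OE and OEControl (x axis) with its 95% interval for ABC genes tested in DU145 cells, ordered by value. Orange marks the 10 transporters described, blue other membrane and lipid transporters and green organelle and ribosome proteins, and filled points passed the limma threshold of 0.05. ABCG1, ABCC3 and ABCA1 are the 3 lowest points, and filled green points lie on either side of 0.

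Per length of exon, the make-up of the 10 transporters differed between the lines. The length of a gene was that of all its GENCODE exons merged, whichever transcripts the cells make. In reads per kilobase of exon, scaled to the total reads of the library (RPKM), the members summed to 28.5 ± 2.43 in shControl and 33.6 ± 0.826 in GALNT7 KD (SD, n = 3). ABCB6 was the highest in both, at 13.7 ± 2.03 in shControl and 14 ± 0.605 in GALNT7 KD, followed by ABCC5 at 7.45 ± 0.651 and 7.93 ± 0.739. The place of ABCB6 is uncertain, because 54.7% of its exon bases are shared with AC068946.2. ABCG2 went from the fifth place in shControl (1.51 ± 0.502) to the third in GALNT7 KD (3.83 ± 0.113), and its share of the sum from 5.29% to 11.4%. In shControl ABCC1 (2.61), ABCC4 (1.77), ABCG2 (1.51) and ABCC2 (1.00) came next after ABCC5, and the library ranges of ABCC4 and ABCG2, and of ABCG2 and ABCC2, overlapped. ABCG1 (0.191), ABCC3 (0.0723), ABCA1 (0.0690) and ABCB1 (0.0635) came last, and the last 3 overlapped with their neighbours.

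In DU145 cells ABCC3 dominated the sum. It stood at 66.4 ± 2.12 of 103 ± 2.26 in OEControl, a share of 64.2%, and at 18.8 ± 1.35 of 54.1 ± 0.705 in GALNT7 OE, a share of 34.7% (SD, n = 3). ABCC4 was second in both groups (13 ± 0.0752 and 10.7 ± 0.476). ABCB6 moved from the fifth place (4.66 ± 0.204) to the third (9.81 ± 0.809), where its range overlapped that of ABCC4. The places of ABCB6 are uncertain here too, for its shared exon bases. ABCC1 (8.04 and 6.53) and ABCC5 (6.46 and 5.18) lay in the middle in both groups, and their ranges overlapped in GALNT7 OE. ABCA1 was sixth in OEControl (2.30) and eighth in GALNT7 OE (0.749), where ABCG2 (1.28) and ABCC2 (0.940) overlapped with their neighbours. ABCB1 was the lowest in both (0.0150 and 0.00471). The lines are set side by side here without a test.

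**Figure D5:**
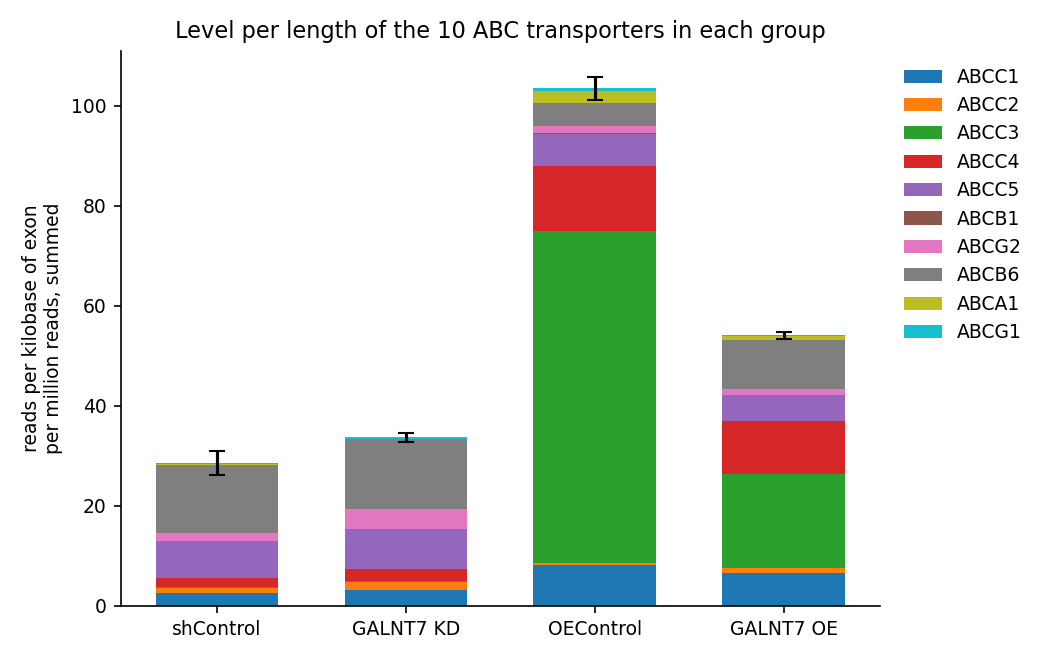
Summed level of the 10 transporters in each group, in reads per kilobase of exon scaled to the library's total reads (RPKM), with each transporter's mean as a segment and the SD of the sum over 3 libraries as the bar. The ABCC3 segment is 66.4 in OEControl and 18.8 in GALNT7 OE, and is too thin to see in the CWR22Rv1 groups.

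For the member with the smallest p in each line, the genes with the most similar levels over the 6 libraries were looked up among genes averaging at least 50 normalised counts. For ABCC2 in CWR22Rv1 cells these were RBMY1B (Pearson r = 0.996), whose multicopy family can share reads, CORO2A (r = 0.996) and TRPV3 (r = 0.994), out of 12958 genes. For ABCC3 in DU145 cells they were the aldose reductase AKR1B1 (means of 12173 in OEControl and 5582 in GALNT7 OE), OASL (874 and 203) and LTBP2 (6669 and 1924), all with r rounding to 1.00 out of 13636 genes. These correlations over 6 libraries are descriptions, because the points share the same libraries and fall into the same 2 groups.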

How the data were processed

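RNA was taken from 12 cultures with an RNeasy kit and libraries were made with the TruSeq Stranded mRNA kit. The authors deposited a normalised signal, the reads of each gene over a size factor of the library. Per the labels, the submitters' processing notes list Salmon, DESeq2, FastQC, R 3.5.3 and hg38. The annotation release is not given in the sources used here. Whole reads were recovered by dividing by the smallest value above 0, and 100% of values were whole within 0.01. Names and positions came from GENCODE 29, and promoters from RefSeq.

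Each line was tested with limma 3.58.1 (lmFit, eBayes with trend) in R 4.3.3 on log2(normalised count + 1), keeping genes averaging at least 5, with Benjamini-Hochberg adjustment. The members and gene lists were chosen with earlier results of these data known. Named were all members and, per list, up to 3 genes past the threshold with the largest change, a mean of at least 50 and no overlap. TAP1, RXRB and FLOT1 were not analysed here, and some genes that are part of the counts have no values given here. Alternatives were other pseudocounts, filters, scalings and thresholds, the replicate block, 1 library left out, edgeR 4.0.16 and DESeq2 1.42.0. The fits were tested on simulated data. Replicate pairs differed by more than sampling noise (mean chi-square per gene 9.44 to 26.0), so each library counted once.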

Additional observations from a re-analysis of the deposited data

How the results depend on the processing

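In DU145 cells ABCC3, ABCC4, ABCB6, ABCG1 and ABCA1 kept their sign and their call under all 11 other settings and all 6 fits without 1 library, and the number of members past the threshold lay between 5 and 8. In CWR22Rv1 cells that number was 3 in the reported fit, 0 at a threshold of 0.01, and 0 to 3 with a library left out. The other ABC genes past the threshold in the knockdown numbered 1 in the reported fit, 2 with a pseudocount of 5 or quantile normalisation, 0 at 0.01, and 0 to 1 with a library left out. In overexpression they went from 12 to 7 at 0.01. Genes of the 6 pathway lists past the threshold in the knockdown went from 26 to 16 without the trend, to 11 at 0.01, and to 13 to 22 with a library left out; the cause was not tested. All genes past the threshold in the knockdown numbered 1623, against 996 without the trend, 2666 in DESeq2 and 392 at 0.01.

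The sign turned for 3 members whose differences were not past the threshold. In the knockdown the log2 fold change of ABCC3 was -0.54 without GALNT7 KD replicate 3 and -0.0564 without shControl replicate 3. Over the fits without 1 library it ran from -0.54 to 0.56. That of ABCB6 was -0.095 without shControl replicate 2 and ran up to 0.11. That of ABCB1 was 0.19 without GALNT7 KD replicate 1 or 3, 0.27 without shControl replicate 1 and 0.24 without shControl replicate 2, and ran down to -1.53.

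With the replicate number as a block, 1 member (ABCG2, adjusted p = 0.0422 in limma) was past the threshold in the knockdown, while ABCC2 (0.0505) and ABCC4 (0.05004) were just above it, and 1002 of all genes passed. In overexpression ABCC1 was past it (0.0463). Same-numbered libraries correlated between -0.011 and 0.0747 in their deviations from the group means. In DU145 cells each library correlated best with its own number, in CWR22Rv1 cells not. The reported fits did not treat the numbers as pairs, and whether they are pairs was not tested.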
